A study of Mus musculus with 12 samples.

Results

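At 10 genes of the DNA methylation machinery, 68 regions were examined for methylation in progenitor cells of mouse bone marrow, comparing a Dnmt1 mutant with the wild type. They were taken from 107115 candidate regions over the genome. The set held each region of the authors' list of 35439 hypomethylated regions that the list assigns to 1 of the genes at a distance of 5000 bp or less, which gave 19 listed regions. It also held the 49 candidate regions lying between the first and the last listed region of a gene. Members were thus chosen by the difference between mutant and wild type, so levels and differences are given as a description, and calls from the fit over all candidate regions are counted only beside their share over those regions. Of the 10 genes, 8 had members: Dnmt1 (25 regions), Tet3 (22), Dnmt3a (15), Mbd2 (2), and Uhrf1, Dnmt3l, Tdg and Ehmt2 with 1 each. Mbd3 and Mbd4 had none.

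DNA came from lineage-negative marrow cells, a mixed fraction from which cells with markers of mature blood lineages were depleted. All mice were BALB/c. Controls are labelled wt and mutants dnmt1-/-, although the series' design text speaks of a specific Dnmt1 mutation modelled on hypomorphic missense alleles of fish. The labels give no age, no position of the mutation and no statement that replicates were separate animals, so any spread given here is that between these samples. The 12 samples were 6 per genotype, 1 library from each of 2 kits for every replicate number, and the values come as 1 column per genotype and replicate number (n = 3 against 3). The depth behind each level is unknown. No expression was measured, so the labelled cell fraction was not checked against markers. In such a bulk fraction, a change of methylation within cells and a change in the mix of cells cannot be told apart.

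Methylation of cytosine at CpG sites is copied after replication by Dnmt1, which Uhrf1 brings to hemimethylated DNA, and is laid down anew by Dnmt3a with its catalytically inactive partner Dnmt3l. Tet enzymes such as Tet3 oxidise methylcytosine, and the glycosylase Tdg excises the oxidised products. Of the proteins with a methyl-CpG binding domain, Mbd2 reads the mark, Mbd4 repairs its deaminated form and Mbd3 does not bind it selectively in mammals, and Ehmt2, also called G9a, methylates histone H3 at lysine and is linked to DNA methylation at silenced genes. In blood-forming cells this machinery is known above all for Dnmt3a and the Tet family, whose loss alters stem cell behaviour.

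Promoters are shown first, although most members lay inside the genes and kilobases away from a RefSeq start. The sequences are the 250 bases before a start site of RefSeq, build GRCm38.p6, from 5′ to 3′ on the gene's strand, with each CG, the site of methylation, in capitals. RefSeq windows matched 9 of the 10 genes, with 17 windows. The 5 shown are a Dnmt1 start with no candidate region near it, the Uhrf1 and Tet3 starts closest to a listed region, and the Dnmt3l and Mbd4 starts that a candidate region reached.
Dnmt1, chromosome 9, 20952624 to 20952873, minus strand: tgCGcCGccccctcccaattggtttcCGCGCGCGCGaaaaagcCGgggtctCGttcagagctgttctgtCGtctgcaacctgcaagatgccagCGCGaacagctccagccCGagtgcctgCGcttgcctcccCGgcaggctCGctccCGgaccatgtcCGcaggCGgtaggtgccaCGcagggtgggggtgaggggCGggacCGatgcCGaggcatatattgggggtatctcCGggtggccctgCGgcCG
Uhrf1, chromosome 17, 56304063 to 56304312, plus strand: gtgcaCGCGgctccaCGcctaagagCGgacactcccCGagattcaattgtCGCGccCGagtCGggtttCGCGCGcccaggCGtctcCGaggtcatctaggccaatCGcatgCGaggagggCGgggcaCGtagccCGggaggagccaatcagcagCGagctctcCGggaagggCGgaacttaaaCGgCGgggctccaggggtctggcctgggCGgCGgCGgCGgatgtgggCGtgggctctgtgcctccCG
Tet3, chromosome 6, 83441679 to 83441928, minus strand: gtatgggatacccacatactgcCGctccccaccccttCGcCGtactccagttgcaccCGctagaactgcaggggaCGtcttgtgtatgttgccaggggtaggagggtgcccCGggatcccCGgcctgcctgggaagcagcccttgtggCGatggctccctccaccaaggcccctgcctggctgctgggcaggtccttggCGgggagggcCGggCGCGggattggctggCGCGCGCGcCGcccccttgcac
Dnmt3l, chromosome 10, 78042037 to 78042286, plus strand: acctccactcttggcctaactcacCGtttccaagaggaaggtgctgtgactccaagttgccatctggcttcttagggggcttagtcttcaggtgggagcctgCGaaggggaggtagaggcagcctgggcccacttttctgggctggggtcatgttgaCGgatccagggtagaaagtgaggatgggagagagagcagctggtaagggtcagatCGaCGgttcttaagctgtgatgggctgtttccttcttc
Mbd4, chromosome 6, 115853342 to 115853591, minus strand: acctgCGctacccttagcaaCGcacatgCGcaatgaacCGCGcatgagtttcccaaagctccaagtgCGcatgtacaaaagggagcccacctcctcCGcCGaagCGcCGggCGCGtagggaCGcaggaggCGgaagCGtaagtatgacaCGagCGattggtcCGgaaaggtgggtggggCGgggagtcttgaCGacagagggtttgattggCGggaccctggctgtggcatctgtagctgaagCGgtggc

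These stretches hold 26 CG sites at Dnmt1, 30 at Uhrf1, 17 at Tet3, 5 at Dnmt3l and 22 at Mbd4. Over all 32851 RefSeq windows the median was 6 CG sites (quartiles 2 and 16), and 92.1% held at least 1. CG reads the same on both strands. Of the 17 windows, taken with 50 bases past the start, 2 held part of a candidate region. The same share over all RefSeq windows was not computed. The Dnmt3l stretch, poor in CG, lay wholly (250 bases) inside a region with a wild-type level of 78.1% ± 2.52 (SD, n = 3) and a mutant level of 63.4% ± 6.44. At Mbd4, 103 bases of the CG-rich stretch lay inside a region at 0% in all wild-type replicates and at 6.78%, 0% and 0% in the mutant replicates. Both belong to genes of the set but not to the 68 members.

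Every one of the 68 regions had a lower mean level in the mutant, with differences from -5.85 to -52.3 percentage points. Averaged over the members, the levels were 68.7%, 71.1% and 73.5% in the mutant replicates and 87.1%, 87.1% and 86.8% in the wild-type replicates. That is 71.1% ± 2.40 against 87.0% ± 0.198 (SD, n = 3 each). limma, on the replicate levels and with Benjamini-Hochberg adjustment over all candidate regions, called 67 of the 68 lower and 0 higher at an adjusted p under 0.05, where 93.5% of all candidate regions were called lower and 0.0485% higher. The 3 mutant values were all under the 3 wild-type values in 67 members, where 94.3% of all candidate regions met that. The choice of members fixed most of this, and a share so near the background says nothing about these genes. The median difference was -22.7 points over the 19 listed members, where all listed regions had -26.1. Over the 49 in-between members it was -11.7 points, where candidate regions outside the list had -13.5. Of these 49, limma called 48 lower and 48 had separate groups, where the shares outside the list were 90.2% and 91.4%.

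**Figure D1:**
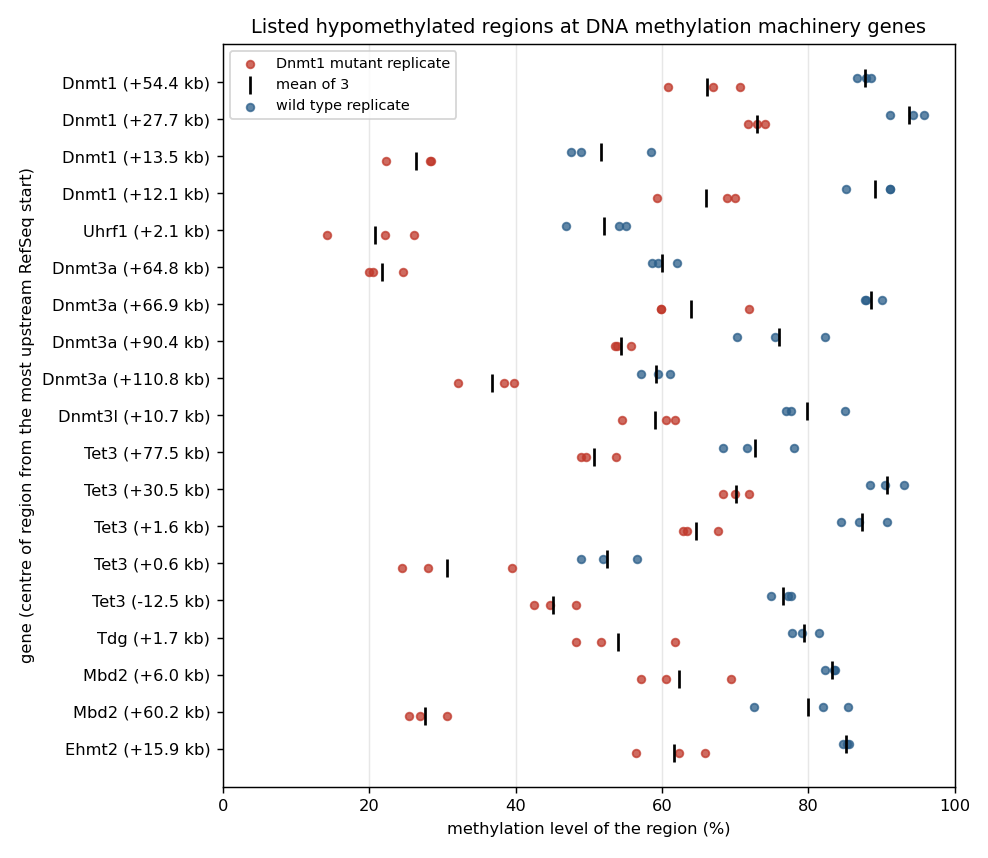
Methylation level (%) of the 19 listed regions in each of the 3 mutant (red) and 3 wild-type (blue) replicates. Black bars are group means. The label gives the centre of the region in kb from the most upstream start with a RefSeq promoter window, or from the span start at Mbd2. The RefSeq spans of Dnmt3a and Tet3 begin kilobases upstream of those starts. Red and blue points do not overlap in any of the 19 rows, where 99.95% of all listed regions had separate groups. The widest gap is the Mbd2 region far from its start.

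Dnmt1, the mutated maintenance enzyme itself, had 4 listed regions. RefSeq places the gene on chromosome 9, 20907206 to 20959888, on the minus strand with 3 starts. The listed region with the largest loss (20945965 to 20946842, 13 CpGs) was at 22.3%, 28.3% and 28.4% in mutant and at 58.5%, 48.9% and 47.6% in wild-type samples. It was the least methylated Dnmt1 member in both genotypes, and wild-type replicate 1 was the highest. Its difference was -25.4 points, so the mutant level was 50.9% of the wild-type level. The next region toward the start (20947421 to 20948230, 11 CpGs) was at 59.3%, 69.9% and 68.9% against 91.1%, 91.1% and 85.1%. It lay 4393 bp into the gene from the nearest start, and no candidate region came closer to that start. The nearest one to the most upstream start lay 943 bp before it, unlisted, at 68.7% ± 4.25 against 85.4% ± 2.17 (SD, n = 3 each).

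The other listed Dnmt1 regions lay deeper in the gene. The smallest loss was at 20931966 to 20932467 (10 CpGs), with 73.0%, 74.1% and 71.8% in mutant and 94.2%, 95.8% and 91.1% in wild-type samples. It had the highest wild-type level of the listed Dnmt1 regions and the tightest mutant replicates (SD 1.17 points). Past the end of the gene, at a distance of 1280 bp in the authors' deposited table, a region (20905117 to 20905926, 10 CpGs) was at 60.8%, 67.0% and 70.7% against 87.9%, 86.7% and 88.6%. Groups did not overlap in these regions. A further listed region of 14 CpGs, 20902140 to 20902845, lies within 5 kb of the gene but the authors assign it to Eif3g. It is therefore no member, and its level was 16.7% ± 2.86 in mutant and 49.5% ± 2.55 in wild-type samples (SD, n = 3 each).

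Between these, the candidate regions in the Dnmt1 gene body formed a plateau of high methylation. The 21 in-between regions of Dnmt1 had wild-type levels from 92.3% to 97.6% and mutant levels from 74.8% to 89.5%. Averaged over the 21, the mutant replicates were at 81.2%, 82.8% and 85.8% and the wild-type replicates at 94.6%, 95.3% and 94.9%. The largest in-between loss was -18.3 points (20926256 to 20926668). At the smallest loss, -5.85 points (20943653 to 20944146), levels were 83.4%, 89.9% and 90.8% in mutant and 89.7%, 95.6% and 96.4% in wild-type samples. Here 2 mutant replicates lay above wild-type replicate 1, and this was the 1 member region that limma did not call.

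**Figure D2:**
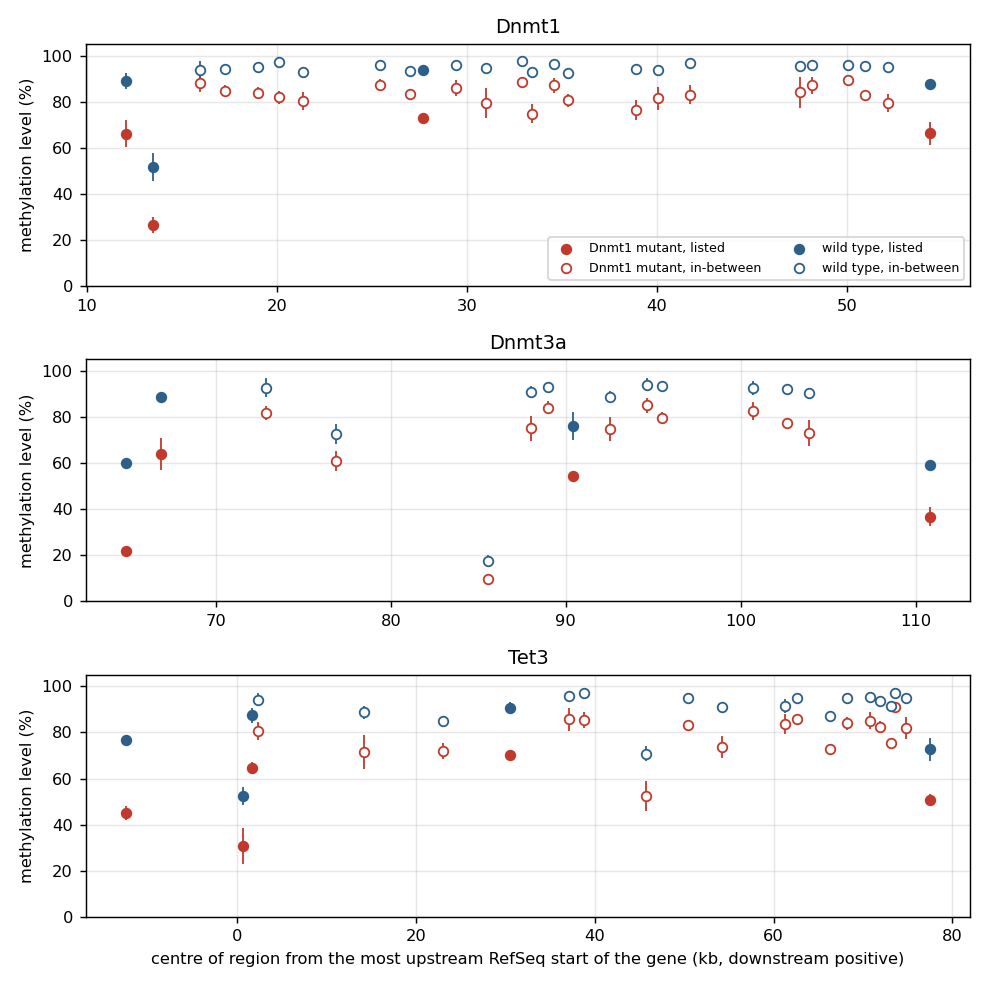
Methylation level (%) along Dnmt1, Dnmt3a and Tet3 against the centre of the region (kb) from the most upstream start with a RefSeq promoter window. The RefSeq spans of Dnmt3a and Tet3 begin kilobases upstream of those starts. Points are means of 3 replicates, bars are SD, red is mutant and blue is wild type. Filled points are listed and open points in-between regions. Most wild-type points lie near the top with dips at single regions, and every red point lies below the blue point at the same place.

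Uhrf1, the partner that recognises hemimethylated CpGs, had 1 listed region near its start (chromosome 17, 56305111 to 56305761, 12 CpGs), 798 bp into the gene. The mutant replicates were at 14.3%, 22.1% and 26.1% and the wild-type replicates at 54.1%, 55.1% and 46.8%. The groups stood apart by -31.2 points, and the mutant mean was 40.04% of the wild type's. Outside candidate regions no level was tabulated. The 4 further candidate regions in the Uhrf1 span, from 56315070 to 56322573, had wild-type levels of 93.2%, 96.3%, 92.3% and 93.2%. Their differences were -17.2, -7.82, -15.1 and -10 points, and none was listed.

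Dnmt3a, the main enzyme of new methylation in blood progenitors, had 4 listed regions on chromosome 12 in a span from 3801559 to 3914443. The largest loss was in a short, CpG-dense region inside the gene (3871692 to 3871951, 12 CpGs), at 20%, 20.5% and 24.5% in mutant and 59.5%, 58.6% and 62.0% in wild-type samples. Its difference was -38.4 points and the mutant level was 36.1% of the wild type's. Close by, 3873334 to 3874387 held the most CpGs of the listed Dnmt3a regions (24), with 59.9%, 59.8% and 71.9% against 90.1%, 87.7% and 87.8%. Mutant replicate 3 stood above the other mutant replicates there. The smallest listed loss was -21.6 points (3896896 to 3897904, 14 CpGs), with 53.6%, 55.7% and 53.8% against 82.3%, 75.5% and 70.2%. Here the wild-type replicates were spread more widely (SD 6.06 points) than the mutant ones (1.14 points).

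A last listed Dnmt3a region (3917575 to 3918050, 10 CpGs) lies past the gene's end, at 3133 bp in the authors' deposited table. It was at 32.1%, 38.4% and 39.8% against 59.4%, 61.1% and 57.1%, the lowest wild-type level of the 4. Among the 11 in-between regions, losses ran from -17.4 points (3910600 to 3911123) to -7.85 points. The latter region, 3892380 to 3892683, lies 636 bp downstream of an internal RefSeq start and was the least methylated of all members. Its levels were 8.44%, 9.56% and 11.2% in mutant and 16.3%, 20.3% and 16.1% in wild-type samples. The groups did not overlap even at these low levels.

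Upstream of the first listed Dnmt3a region the gene held 11 further candidate regions, none listed. At 3825755 to 3826581 the replicate columns differed by -20.5 points (63.2% ± 4.31 against 83.7% ± 0.479, SD, n = 3 each). The smallest difference, -3.26 points at 3864592 to 3864822 (92.9% ± 1.22 against 96.1% ± 1.13), was not called by limma.

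Dnmt3l, the cofactor best known from germ cells, had 1 listed region (chromosome 10, 78052653 to 78053240, 10 CpGs) between its middle and its last RefSeq start. The mutant was at 54.6%, 60.6% and 61.8% and the wild type at 85%, 77.6% and 76.9%, a difference of -20.9 points. Levels near its first start varied over short distances. The region across that start was described with the promoter sequence above, and one 1252 bp into the gene (78043539 to 78043681) was near 0 in both genotypes, at 0.444% ± 0.77 in mutant and 2.63% ± 2.61 in wild-type replicates (SD, n = 3 each), which overlapped. A listed region upstream (78039831 to 78040471) is assigned to Aire.

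Tet3, which oxidises methylcytosine, had 5 listed regions on chromosome 6, in a span from 83362373 to 83457208 on the minus strand. The largest loss at Tet3, and the most CpGs of the 19 listed members (45), was at 83453130 to 83455174. It was at 42.4%, 44.7% and 48.2% in mutant and 77.6%, 74.8% and 77.2% in wild-type samples, a difference of -31.4 points. This region of 2045 bp lies some way upstream of the RefSeq start shown above but inside the gene's span. Next to that start, 453 bp downstream, 83440940 to 83441225 held 15 CpGs in 286 bp. Levels there were 24.4%, 39.4% and 28% against 48.9%, 51.9% and 56.6%, and mutant replicate 2 lay above the other mutant replicates.

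A neighbouring Tet3 region 1182 bp downstream of the start (83439578 to 83440496, 11 CpGs) was at 63.4%, 62.9% and 67.6% against 84.5%, 86.9% and 90.7%. Of this pair, the region closer to the start had the lower level in both genotypes. The smallest listed loss, -20.6 points, was at 83410987 to 83411446 (10 CpGs), with 68.3%, 70.0% and 71.9% against 90.4%, 93.1% and 88.4%. Toward the gene's end, 83363728 to 83364582 (11 CpGs) was at 49.6%, 48.9% and 53.7% against 71.6%, 68.3% and 78.0%. The 17 in-between regions averaged 79.2% ± 2.19 in mutant and 91.6% ± 0.451 in wild-type samples (SD, n = 3 each). Their losses ran from -18.6 points (83395798 to 83396164) to -6.15 points (83368000 to 83368103), and the former had the lowest wild-type level of the 17, 70.9%.

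Tdg, the glycosylase that removes oxidised methylcytosine, had a single candidate region within 5 kb, and it was listed (chromosome 10, 82631229 to 82631861, 12 CpGs). It lies 1391 bp into the gene and was at 48.3%, 51.6% and 61.8% in mutant and 77.7%, 81.5% and 79.2% in wild-type samples. The mutant replicates were spread more widely than the wild-type ones (SD 7.05 against 1.88 points), and the difference was -25.5 points.

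Mbd2, a methyl-CpG reader that recruits repressor complexes, had the largest loss of all members. The region (chromosome 18, 70628290 to 70628600, 16 CpGs in 311 bp) was at 30.6%, 26.9% and 25.5% in mutant and 85.5%, 82.0% and 72.5% in wild-type samples. Its difference was -52.3 points, and the mutant level was 34.6% of the wild type's. The authors' deposited table places it 2160 bp past the gene, whereas the RefSeq span, 70568225 to 70629134, includes it. The other Mbd2 region (70573758 to 70574754, 14 CpGs), 5533 bp into the gene, was at 57.2%, 60.5% and 69.4% against 83.5%, 82.3% and 83.7%, a difference of -20.8 points.

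Mbd3, a subunit of the NuRD repressor complex, and Mbd4, a glycosylase that repairs deaminated methylcytosine, had no listed region of their own. In the Mbd3 span 3 candidate regions were tabulated, with differences of -14.1, -8.46 and -19.9 points. The last of these (chromosome 10, 80396402 to 80397159) was at 69.8%, 72.0% and 72.7% against 89.6%, 92.1% and 92.5%. Within 5 kb lay 1 listed region for each gene that the authors assign to neighbours, to Mex3d beside Mbd3 and to Efcab12 and Gm44206 beside Mbd4. In the Mbd4 span itself no candidate region was tabulated.

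Ehmt2, the histone methyltransferase, had 1 listed region (chromosome 17, 34913421 to 34915325, 23 CpGs) at its end, which the authors also assign to Slc44a4. It was at 56.5%, 62.3% and 65.9% against 85.3%, 84.7% and 85.5%, a difference of -23.6 points, and the wild-type replicates were nearly alike. Upstream of its start lay 3 listed regions that the authors assign to C2 and Zbtb12, so they are not members. The closest, 1860 bp upstream (34896091 to 34896614), was at 23.2% ± 4.27 and 60.8% ± 4.99. The other two differed by -44.3 and -22.6 points.

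**Figure D3:**
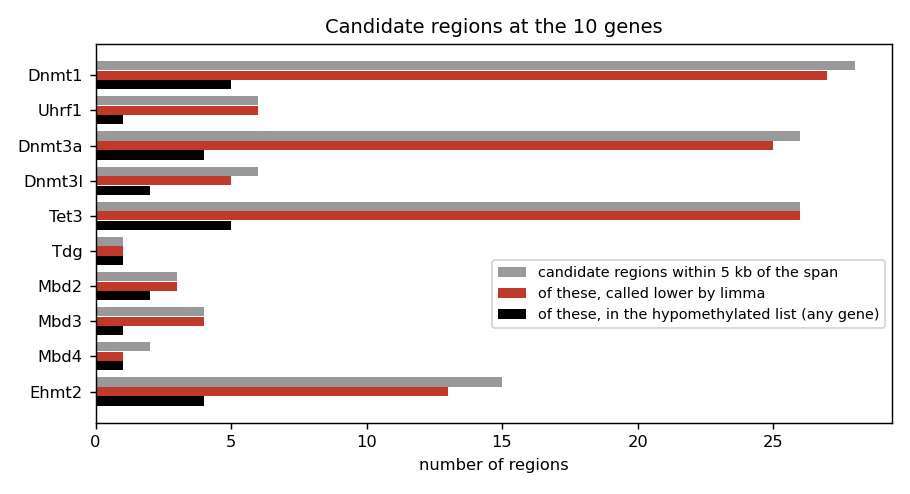
Number of candidate regions within 5 kb of each gene's RefSeq span (grey), of those called lower by limma (red) and of those in the hypomethylated list under any gene's name (black). Dnmt1 has 28 candidate regions and Tdg 1. The red bars nearly match the grey ones, where 93.5% of all candidate regions were called lower.

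Ordered by the wild-type level averaged over listed regions, Ehmt2 was highest at 85.2% ± 0.404. It was followed by Mbd2 at 81.6% ± 3.23, Dnmt1 at 80.5% ± 2.42, Dnmt3l at 79.8% ± 4.50 and Tdg at 79.5% ± 1.88 (SD, n = 3). Tet3 stood at 75.9% ± 1.96, Dnmt3a at 70.9% ± 1.78 and Uhrf1 at 52.0% ± 4.52. Neighbours from Mbd2 to Tdg lay within each other's spread. In the mutant the order was Ehmt2 at 61.6% ± 4.75, Dnmt3l at 59.0% ± 3.87, Dnmt1 at 57.9% ± 3.49, Tdg at 53.9% ± 7.05 and Tet3 at 52.2% ± 2.27. Below these came Mbd2 at 45.0% ± 2.09, Dnmt3a at 44.2% ± 3.10 and Uhrf1 at 20.8% ± 6.01. Uhrf1 was thus lowest in both genotypes, and Mbd2 moved from the upper to the lower part of the order. These averages rest on 1 to 5 regions a gene, chosen by the list. At Mbd2, 1 region was at 27.7% in the mutant and the other at 62.4%. The Uhrf1 average is its 1 listed region. Unlisted candidate regions in the Uhrf1 span had wild-type levels from 92.3% to 96.3%.

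The share of methylation present in the mutant was higher in members with a higher wild-type level, apart from 1 member under 40%. The 5 members with wild-type levels between 40% and 65%, at Dnmt1, Uhrf1, Dnmt3a (2) and Tet3, had mutant levels with a median of 50.9% of the wild type's (36.1% to 62.1%). For the 10 members between 65% and 85% the median was 72.7% and for the 52 above 85% it was 87.0%. The same medians over all candidate regions were 54.8%, 70.3% and 84.0%. The member under 40%, the Dnmt3a region near the internal start, had 55.4%, above the median of the class from 40% to 65%, where all candidate regions under 40% had a median of 36.9%. All 5 members between 40% and 65% were listed, and a loss of at least 20 points is a larger share of a low level, so part of this order follows from the list's threshold. The Mbd2 region with the largest loss was far below the median for its level.

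**Figure D4:**
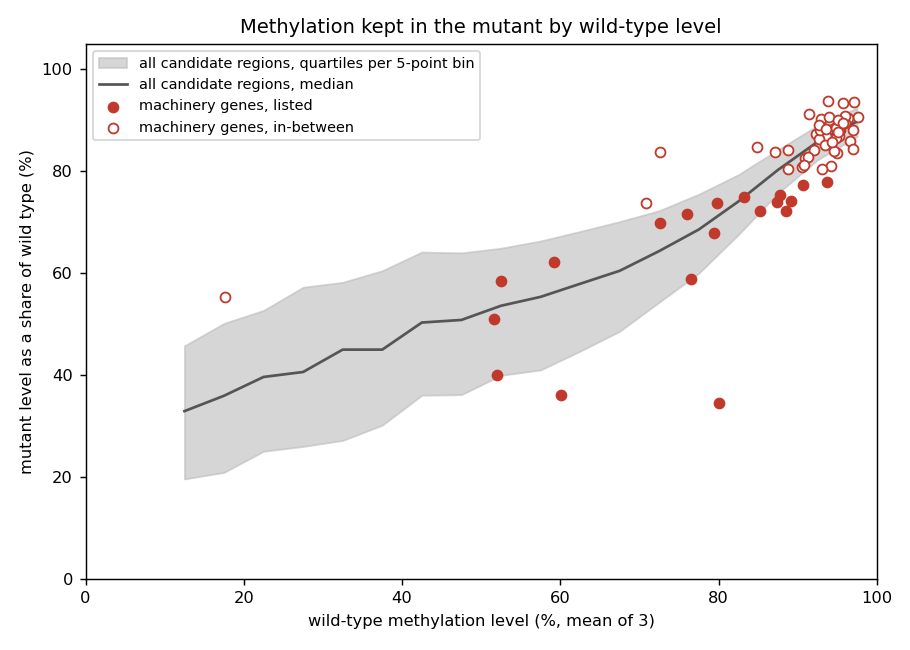
Mutant level as a share of the wild-type level (%) against the wild-type level (%, mean of 3) for the 68 members, with listed regions filled and in-between regions open; the grey line and band are the median and quartiles of all candidate regions with a wild-type level of at least 10%, in bins of 5 points. Most members lie along the rising line, with the Mbd2 region at 34.6% well below it.

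Replicates of the mutant were not alike at these genes. Mutant replicate 1 had the lowest level in 43 of the 68 members (63.2%), where it did so in 59.7% of all candidate regions, and mutant replicate 3 the highest in 49 (72.1%), where it did so in 58.0%. The SD of the mutant exceeded that of the wild type in 55 members (80.9%), where 71.2% of all candidate regions did so. The 2 parts of the set differed in this. Among listed members the count was 11 of 19 (57.9%), where it was 70.0% of all listed regions. Among in-between members it was 44 of 49 (89.8%), where it was 71.7% outside the list. These counts were not tested and not matched for level, and members of a gene are neighbours and not replicates. The median wild-type level was 93.9% over in-between members and 89.4% over candidate regions outside the list.

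CpG content was compared with that of the whole list. The median listed member held 12 CpGs, as did the median of all listed regions, and the medians of CpG density were 1.84 and 1.78 CpGs per 100 bp. Of the 19, 6 had a metilene q under 0.05 in the authors' deposited table (31.6%), where 23.3% of the list did. That table also holds a further adjusted p, from a test that its headers do not name. Its largest value over the whole list was 0.0154, so a metilene q above 0.05 did not keep a region out. At the list's threshold of 20 points in the authors' deposited difference, the members just inside were a Tet3 region at -20.4 and a Dnmt1 region at -21.2 points. Just outside, the in-between regions of Tet3 and Dnmt1 with the largest losses differed by -18.6 and -18.3 points in the replicate columns. The largest distance of a member from its gene was 3133 bp, at Dnmt3a, and no listed row of the 10 genes lay farther than 5000 bp. In the list of 4 hypermethylated regions 0 belonged to these genes.

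For Dnmt1, the genes with the most similar mean levels over their listed regions were Cmtm8, Prr5 and Zfp683. Over the 6 columns their root-mean-square differences from Dnmt1 were 1.10, 1.27 and 1.32 points, among 3028 genes with at least 3 listed regions. Dnmt1 was at 53.8%, 59.8% and 59.9% in mutant and 82.9%, 80.6% and 78.1% in wild-type samples, and Cmtm8 at 55.6%, 58.6% and 60.6% against 82.3%, 79.4% and 78.6%. All these levels come from regions that the list chose for their loss, and the likeness was not tested. Over the whole list the averages were 48.4% in mutant and 76.8% in wild-type samples.

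Beyond the 10 genes, 34 others of the pathway were examined, chosen by their known role. Of these, 23 (67.6%) had a candidate region within 5 kb, where 64.8% of protein-coding genes did. A listed region of their own was found at 7 (20.6%), where 34.9% of protein-coding genes had one. The 10 genes, 8 of them with a listed region, had been set apart beforehand. The 20.6% is therefore not the share of the whole pathway. limma called 85 of their 101 candidate regions lower (84.2%) and 0 higher, where the shares over all candidate regions were 93.5% and 0.0485%. By role, a listed region was found at 1 of 5 maintenance genes, 3 of 8 genes of oxidation and repair and 3 of 7 readers. None was found at the 2 de novo, 8 silencing and 3 methyl donor genes or at Dppa3, which protects methylation in the early embryo. The span of Dnmt3c was matched as a synonym of the RefSeq entry Dnmt3b-ps1. Listed regions were searched by the name Dnmt3c alone, so any under another name would be missed. The 11 genes with no candidate region here included Tet2, Uhrf2 and the remodeller gene Hells, and 4 of the 11 lie on the X chromosome.

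At Zbtb38, a zinc finger reader of methylated DNA, the region of largest loss (chromosome 9, 96715676 to 96716319) was at 33.1% ± 5.65 against 75.04% ± 2.83 (SD, n = 3 each). The largest losses at the reader genes Mbd6 and Zbtb4 were -33.7 and -29.4 points. Those at Gadd45b and the glycosylase gene Neil1, both linked to demethylation, were -30.1 and -26.1 points. At Usp7, whose product stabilises Dnmt1 and Uhrf1, the largest listed loss was -24.1 points, in a region outside the RefSeq span that the authors' deposited table places in the gene.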

How the data were processed

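The authors deposited methylation levels as a fraction for candidate regions in 6 columns, turned to percent here. Their lists of regions, called with metilene per the file names, hold the genotype means as a fraction, the deposited difference of means as a score, p-values and q-values, the count of CpGs per region, and a distance to the gene span in the authors' annotation. Tested on the lists, each hypomethylated region had at least 10 CpGs and a difference of at least 20 points. The largest further adjusted p in the hypomethylated list, from a test that the headers do not name, was 0.0154. Coordinates are on mm10 (per the submitters' processing notes). Which aligner and which methylation caller made the levels is not given in the sources read. Whether reads of both kits were merged is not known. No coverage is given, so neither a coverage minimum nor a counting interval could be applied.

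Every candidate region was fitted with limma 3.58.1 in R 4.3.3 on percent, with Benjamini-Hochberg adjustment over all 107115 regions, and tested on simulated data. Spans and promoter windows came from RefSeq (GRCm38.p6, the assembly that mm10 names). Exon and intron positions were not used here. Named were all 10 genes, each listed region, the in-between extremes per gene, pathway genes with a listed region (1 of them is counted but not reported here by name or value) and the 3 genes most like Dnmt1. Other regions named near the genes were chosen after their values were seen. Members, lists and rules were chosen with earlier results of these data known. No columns were alike (smallest median absolute difference 2.44 points). Python 3.11.15, numpy 2.4.6, pandas 2.3.3 and matplotlib 3.10.9 were used.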

Additional observations from a re-analysis of the deposited data

How the results depend on the processing

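The number of the 68 members called lower by limma was 67, where 93.5% of all candidate regions were called lower. It was 68 on a logit scale (levels held between 1% and 99%), where 95.1% of all candidate regions were called. It was also 68 with a variance trend (95.4% of all candidate regions) and with the replicate number as a block (93.3%). Leaving out 1 replicate column gave 65 to 67, where 89.3% to 93.4% of all candidate regions were called. Same-numbered columns of mutant and wild type correlated at 0.0372, 0.0049 and 0.05 in their deviations over all candidate regions. Differently numbered columns correlated at -0.0507 to 0.0117. With 3 columns per genotype these values cannot decide whether a shared replicate number marks a pair. With a distance of 1000 bp 44 of 45 members were called and with 10000 bp 67, because the rule takes in fewer or the same regions. With only listed regions 19 of 19 were called, as were 100% of all listed regions, an outcome that the list fixes.

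The median difference over listed members was -22.7 points, and -21.2 to -24.3 points without 1 replicate column, -22.6 with the authors' deposited means, -24.1 with a metilene q under 0.05 and -13.7 with in-between regions added, since those lost under 20 points. Of 85 alternative medians for single genes, 79 moved by less than the SD of that median over the mutant replicates and 6 by more. Of the 85, 0 changed sign, an outcome that the choice of members largely fixed. Some alternatives kept the same regions and columns, as at Tdg with either other distance, and could not move. The in-between regions with separate groups numbered 48 of 49, and 48 to 49 without 1 column, a check added after seeing the data. The 7 other pathway genes with a listed region became 7 at 1000 bp and 8 at 10000 bp. Unknown depth and 3 replicates per genotype limit the precision of every level.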
